A study of Homo sapiens with 12 samples.

Results

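The E2F family of transcription factors comprises E2F1 to E2F8, and 6 of these bind DNA together with a DP partner encoded by TFDP1 or TFDP2. Its members were taken as every probe set whose platform gene symbol is 1 of these 10 genes, which gave 26 of the 49395 probe sets on the array and 10 of the 18132 genes that have a probe set with a single symbol. All 26 reached a log2 signal of 5 in at least 2 arrays and were tested. The 3 human non-small cell lung cancer lines H1993, H1693 and H1650, described in the labels as overexpressing the polarity kinase MARK2, were profiled on Affymetrix PrimeView arrays. In each line a MARK2 knockdown group (KD), transduced with a lentivirus that expresses a short hairpin RNA against MARK2, was set against a PLKO CONTROL group that received the empty pLKO vector. Each of the 6 groups had 2 arrays, which the study calls biological replicates, and both groups of a line carry the lentiviral backbone. The hairpin sequence, the number of hairpins and the time after transduction are not given in the sources used here, and the control carries no hairpin of its own.

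E2F proteins decide when a cell leaves G1 and copies its DNA. E2F1, E2F2 and E2F3 are the classical activators, held inactive by the retinoblastoma protein RB1 until cyclin-dependent kinases phosphorylate it. E2F4 and E2F5 mostly work as repressors with the RB1 relatives RBL1 and RBL2, E2F6 represses through Polycomb complexes without binding RB1, and E2F7 and E2F8 are atypical repressors that need no DP partner and are themselves targets of the activators. E2F3 also has an isoform with repressor activity, which shares most of the transcript with the activator isoform.

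The promoters of the activators and of TFDP1 are shown because several hold E2F-type letters close to the start of transcription, so that the genes that encode E2Fs can be read next to the genes E2Fs control. The sequences are RefSeq windows of build GRCh38.p14 before an annotated start, written 5′ to 3′ on the strand of the gene. Capitals mark the letters TTTCGCGC, TTTGGCGC, TTTCCCGC or TTTGCCGC, read on either strand.
E2F1, chr20:33686386-33686635, minus strand: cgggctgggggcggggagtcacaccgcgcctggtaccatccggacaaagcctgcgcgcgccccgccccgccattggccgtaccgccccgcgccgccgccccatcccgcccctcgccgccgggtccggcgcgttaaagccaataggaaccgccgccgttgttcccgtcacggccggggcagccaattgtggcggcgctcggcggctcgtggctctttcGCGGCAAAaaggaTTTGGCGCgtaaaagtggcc
E2F2, chr1:23531234-23531483, minus strand: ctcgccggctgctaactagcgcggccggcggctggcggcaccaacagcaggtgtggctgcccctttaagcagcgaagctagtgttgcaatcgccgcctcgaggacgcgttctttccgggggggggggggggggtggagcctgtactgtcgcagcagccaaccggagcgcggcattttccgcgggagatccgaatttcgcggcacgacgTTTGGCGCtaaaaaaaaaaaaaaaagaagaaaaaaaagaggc
E2F3, chr6:20401629-20401878, plus strand: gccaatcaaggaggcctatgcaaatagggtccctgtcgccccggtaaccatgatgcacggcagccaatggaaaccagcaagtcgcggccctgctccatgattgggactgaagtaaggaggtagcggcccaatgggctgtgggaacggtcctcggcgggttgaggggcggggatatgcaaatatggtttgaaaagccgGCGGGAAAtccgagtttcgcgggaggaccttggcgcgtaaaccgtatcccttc
TFDP1, chr13:113584503-113584687, plus strand: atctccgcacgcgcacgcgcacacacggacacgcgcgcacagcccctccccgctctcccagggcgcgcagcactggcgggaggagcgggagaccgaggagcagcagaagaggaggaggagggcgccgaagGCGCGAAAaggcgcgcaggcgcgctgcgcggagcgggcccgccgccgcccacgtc
E2F1 holds a match on each strand, at positions -33 to -26 and -20 to -13 relative to the start. The match of E2F2 lies at -42 to -35, that of the upstream E2F3 start at -53 to -46, and that of TFDP1 at -120 to -113. The TFDP1 positions count from its later annotated start, but the bases shown stop before an earlier annotated start of the gene, so they number 185 and do not reach the start the positions count from. The other member windows, those of E2F4, E2F6, E2F7, TFDP2 and the downstream E2F3 start, held none of these letters. In all, 4 of the 8 member genes with a window had a match in the 250 bases before a start, against 3.4% of all 27305 genes in the table. Among the classical E2F target genes described below it was 11 of 30. These are letter matches and do not show binding.

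CCAAT boxes, which bind the factor NF-Y, were searched as a second element common in cell cycle promoters. E2F7 carried 4 of them and no E2F letters, and its window is shown with CCAAT, read here on the minus strand as ATTGG, in capitals.
E2F7, chr12:77065570-77065819, minus strand: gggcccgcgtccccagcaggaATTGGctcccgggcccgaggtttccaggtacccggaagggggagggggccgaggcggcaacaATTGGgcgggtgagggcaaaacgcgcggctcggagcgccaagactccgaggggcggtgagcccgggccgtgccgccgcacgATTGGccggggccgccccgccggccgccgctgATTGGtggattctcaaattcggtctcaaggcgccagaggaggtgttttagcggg
CCAAT was also present in the windows of E2F1, E2F3 and TFDP2. It is a frequent pentamer, found in 37% of all genes in the table, and 4 of the 8 member genes held it. E2F5 and E2F8 are named only.

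**Figure D1:**
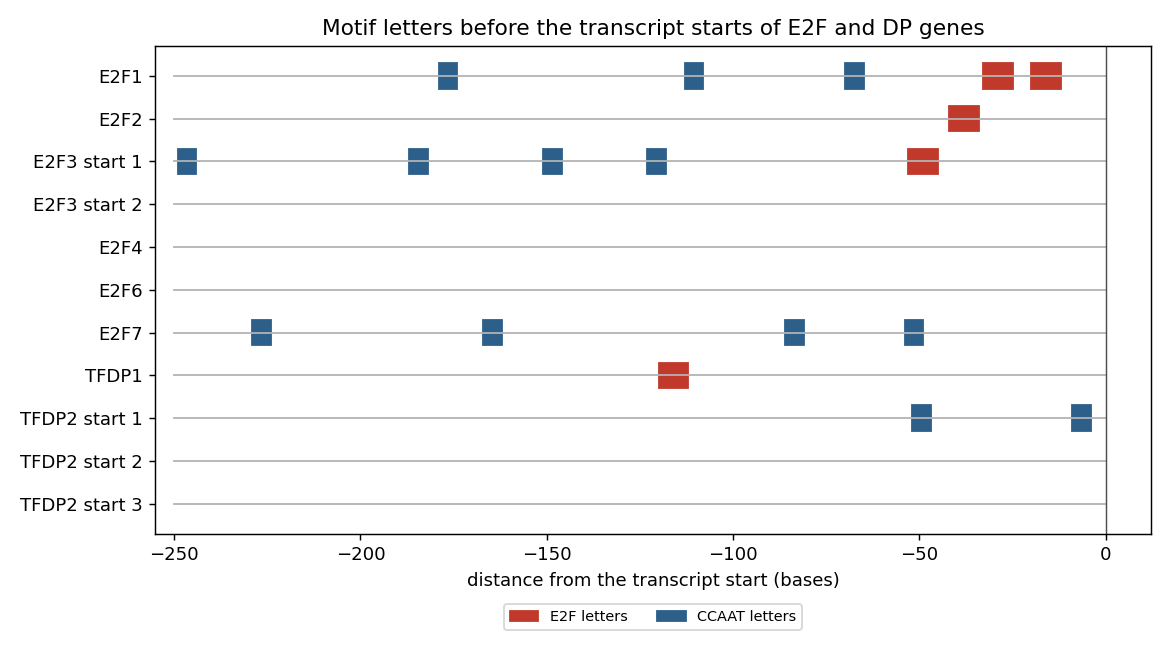
Positions of E2F-type letters and CCAAT in the promoter windows of the members, in bases relative to the annotated start of transcription. The E2F letters of E2F1, E2F2 and E2F3 lie between positions -53 and -13, and E2F7 and TFDP2 carry CCAAT only.

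Array signals are RMA values on a log2 scale, so a difference of 1 is a 2-fold difference. They are comparable for a probe set across arrays, not between probe sets. Where a gene has several probe sets, the one with the highest mean over the 12 arrays stands for it. A change is KD minus PLKO CONTROL with its standard error (SE), and calls are at an adjusted p of 0.05 from limma's moderated test with Benjamini-Hochberg adjustment over all 38924 probe sets tested. Array medians lay between 7.13 and 7.32. MARK2 itself fell by 2.35 in H1993 and by 1.27 in H1693 with its brighter probe set (limma adjusted p of 7.58e-06 and 0.000304), whereas in H1650 its change was -0.29 (adjusted p = 0.16). The H1650 arrays labelled KD therefore show no MARK2 change past the threshold. The brighter set averaged only 5.94 in H1650 controls, against 9.12 and 7.86 in H1993 and H1693 controls. Their KD arrays averaged 6.77 and 6.60, still above the H1650 controls. The dimmer set averaged 4.50 in H1650 controls, below the log2 floor of 5. A fall in H1650 would thus be hard to see, and whether the hairpin acted there was not tested. H1650 also stood apart in the ends of its transcripts. The 3′ probe set of GAPDH exceeded the 5′ probe set by 6.82 ± 0.07 in H1650 KD arrays and by 2.68 ± 0.56 in H1650 control arrays (SD, n = 2 each), against means between -0.10 and 0.00 in the other 4 groups. The ACTB pair differed by 7.06 ± 0.13 in H1650 KD arrays and by 2.90 ± 0.54 in H1650 control arrays. The part of this difference in any H1650 change below was not tested. EPCAM, an epithelial marker, lay between 12.5 and 13.4 in all arrays. Of the leukocyte markers, PTPRC reached at most 4.50, while CD3E lay between 5.81 and 6.37. CD14 averaged 8.72 in H1993 KD arrays and 8.21 in H1993 controls, and LYZ 6.18 in H1993 KD arrays and 4.48 in H1993 controls. The highest signal of CD14 and LYZ was 8.86 and 6.35, and their part in the H1993 changes was not tested. The epithelial keratin KRT8 averaged 7.19 in H1650 KD arrays, against 11.7 in H1650 controls, and its part in other H1650 changes was not tested. The epithelial genes KRT7, KRT18, KRT19 and CDH1 averaged between 13.8 and 14.2 in H1650 KD arrays, and between 13.8 and 14.8 in controls. H1693 arrays had low KRT7, while KRT8, KRT18 and KRT19 averaged at least 12.4 there. The matrix gene LUM averaged 11.9 in H1693 KD arrays, against 10.9 in controls, and COL1A1 10.5 against 9.85. The other fibroblast markers, COL1A2, DCN and PDGFRB, averaged between 4.35 and 6.60 in H1693 KD arrays and between 4.39 and 6.63 in controls.

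**Figure D2:**
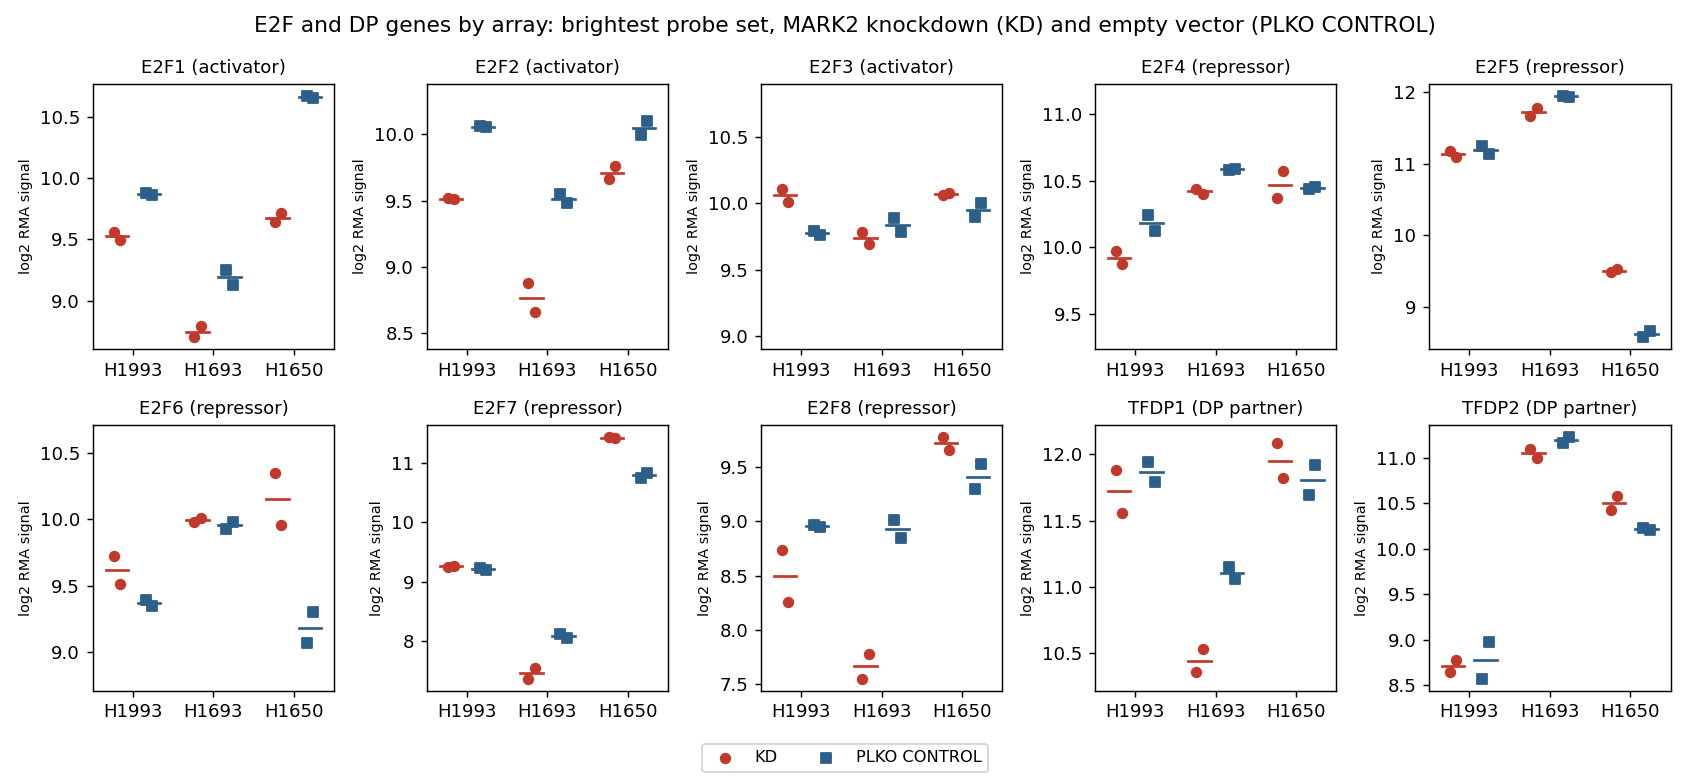
Log2 RMA signal of the brightest probe set of each E2F and DP gene on every array, KD circles left of PLKO CONTROL squares in each line, bars at the mean of 2 arrays. KD lies below PLKO CONTROL for E2F1 and E2F2 in all 3 lines, and E2F5, E2F6 and E2F7 lie above it in H1650.

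Across the family, 5 of 10 genes passed the threshold in H1993, 4 lower and 1 higher, where 30.9% of all 16205 genes tested were called, 13.3% as lower and 17.6% as higher. In H1693 5 of 10 were called and all 5 were lower, against 30.7% called among all genes, 14.8% as lower and 15.9% as higher. With any 1 of its 4 arrays left out, H1993 had 2 or 3 called genes and H1693 still 5. In H1650 2 were lower and 3 higher, with 51.7% of all genes called, 16.2% as lower and 35.5% as higher, so the 5 called members were near the background share. The median change of the 10 genes was -0.11 in H1993, -0.33 in H1693 and 0.22 in H1650, beside medians over all genes of 0.02, -0.02 and 0.15. Counted as probe sets, 8 of 26 were called in H1993 (7 lower and 1 higher), 11 in H1693 (all lower) and 16 in H1650 (8 lower and 8 higher). Over all probe sets tested, 28.7% were called in H1993, 13.7% as lower and 15% as higher. The shares were 29.1%, 13.4% and 15.7% in H1693 and 51.3%, 21.3% and 30% in H1650. The arrays of KD lay wholly below those of PLKO CONTROL for 8 of the 26 probe sets in H1993, 17 in H1693 and 9 in H1650, and over all probe sets tested these shares were 31.3%, 33.9% and 27.8%. They lay wholly above for 9, 3 and 11 sets in the same order of lines, beside 31.9%, 34.6% and 43.6% of all sets.

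Split by role, the activators had 2 of 3 genes lower and 1 higher in H1993, 2 of 3 lower in H1693 and 2 of 3 lower in H1650. The repressors had 2 of 5 lower in H1993, 2 of 5 lower in H1693 and 3 of 5 higher in H1650, with none lower there. Among the 13 repressor probe sets, however, 6 were higher and 2 lower in H1650, beside 30% and 21.3% of all sets tested. Of all genes, 13.3% were lower and 17.6% higher in H1993, 14.8% and 15.9% in H1693, and 16.2% and 35.5% in H1650. The median change of the 3 activators was -0.34, -0.45 and -0.33 in H1993, H1693 and H1650, and that of the 5 repressors was -0.06, -0.21 and 0.63. Medians over all genes were 0.02, -0.02 and 0.15. By these brightest sets the contrast between activators and repressors was widest in H1650, the line with the shifted transcript ends and no MARK2 call. Over all probe sets, the medians of the 6 activator sets were 0.03, -0.29 and -0.14 in H1993, H1693 and H1650. Those of the 13 repressor sets were -0.06, -0.17 and 0.30, so the order was reversed in H1993. The contrast was not tested as a difference between groups of genes.

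E2F1, the activator best known for driving both S-phase genes and apoptosis genes, was lower in KD arrays of every line. It is read by a single probe set. In H1993 it measured 9.56 and 9.49 in KD arrays, against 9.88 and 9.86 in PLKO CONTROL arrays, in H1693 8.70 and 8.79 against 9.25 and 9.13, and in H1650 9.64 and 9.71 against 10.67 and 10.65. The groups did not overlap in any line. The changes were -0.34 in H1993, -0.45 in H1693 and -0.99 in H1650, each with an SE of 0.08 (limma adjusted p of 0.00711, 0.00163 and 2.87e-06). In H1650 the signal of KD arrays was 0.505 times that of the controls. The 3 changes differed from each other (limma F test, adjusted p = 0.00138), while H1993 and H1693 did not differ past the threshold (0.11, SE 0.11, adjusted p = 0.569). Without the second H1993 KD array the H1993 change was -0.31 and missed the threshold (adjusted p = 0.051). RNA from a whole culture cannot separate fewer cells in a cycle phase from less of a transcript in each cell, here and for every gene below.

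E2F2, a second activator whose level rises as cells enter the cycle, was also lower in all 3 lines with its brighter probe set. KD arrays gave 9.52 and 9.51 in H1993, against 10.06 and 10.05 in controls, 8.88 and 8.66 in H1693, against 9.55 and 9.48, and 9.66 and 9.76 in H1650, against 9.99 and 10.10. Every KD array lay below every control array of its line. The changes were -0.54, -0.75 and -0.33 in H1993, H1693 and H1650 (SE 0.09 each, limma adjusted p of 0.00137, 0.000218 and 0.0101). The dimmer probe set of E2F2 was called in H1693 alone, where KD arrays measured 5.64 and 5.91 and control arrays 6.50 and 6.41 (change -0.68, SE 0.20, adjusted p = 0.0268). In H1993 and H1650 its groups overlapped, with changes of -0.16 and 0.06. The H1650 call of the brighter probe set was lost without the first KD array or the second control array (-0.28 in both cases, adjusted p of 0.0567 and 0.0616). The dimmer set lost its H1693 call without the first KD array (-0.55, adjusted p = 0.164) or either control array (-0.64 and -0.72).

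E2F3, the activator whose amplification is known in other tumours, did not follow E2F1 and E2F2. Its brightest probe set was higher in H1993, with 10.11 and 10.01 in KD arrays against 9.79 and 9.76 in controls (change 0.28, SE 0.08, limma adjusted p = 0.0227). In H1693 the groups overlapped, at 9.78 and 9.69 against 9.89 and 9.78, and the change was -0.10 (adjusted p = 0.383). The H1993 change exceeded that of H1693 by 0.39 (SE 0.11, adjusted p = 0.0401), a call that was lost in each of the 8 fits with 1 array of these lines left out (0.33 to 0.44). Without the first H1993 KD array the H1993 change was 0.24 (adjusted p = 0.135), and without either control array it was 0.30 and 0.27, which also missed the threshold (adjusted p of 0.0725 and 0.106). In H1650 the brightest set measured 10.06 and 10.08 against 9.90 and 10 (change 0.12, adjusted p = 0.223). The other E2F3 sets disagreed there, since 1 was higher by 0.50 (adjusted p = 0.00193) and 1 lower, with a change of -0.68 (adjusted p = 0.0192) that lost its call without the first KD array (-0.29) or the first control array (-0.50). In H1993 these other sets changed by 0.26 and 0.22, neither called (limma adjusted p of 0.0867 and 0.502). Their H1993 changes exceeded those of H1693 by 0.24 and 0.35, also without a call (adjusted p of 0.311 and 0.48).

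E2F4, the most abundant E2F of resting cells in textbook accounts and a partner of the pocket proteins RBL1 and RBL2, was lower in H1993. Its brighter probe set measured 9.97 and 9.87 in KD arrays and 10.24 and 10.12 in controls, without overlap (change -0.26, SE 0.09, limma adjusted p = 0.0496). This call was lost whenever any 1 of the 4 H1993 arrays was left out, with changes between -0.32 and -0.20 and adjusted p between 0.0678 and 0.247. The dimmer set gave 8.94 and 8.91 in H1993 KD arrays against 9.36 and 9.34 in controls (change -0.42, SE 0.12, adjusted p = 0.0227), and also lost its call without any 1 of those arrays, at changes between -0.44 and -0.41. In H1693 the brighter set changed by -0.16 and the dimmer by 0.15, neither past the threshold. In H1650 the dimmer set lay near the floor, at 5.04 and 4.96 in KD arrays and 5.60 and 5.18 in controls, although it measured at least 8.91 on every array of the other lines. Its H1650 change of -0.39 (adjusted p = 0.0191) was lost without the second KD array (-0.35) or the first control array (-0.18), and the brighter set changed by 0.03 in that line.

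E2F5, the second pocket-protein partner, is read by 1 probe set and was called in H1650 alone. There it measured 9.48 and 9.52 in KD arrays and 8.57 and 8.66 in controls, well apart (change 0.89, SE 0.08, limma adjusted p = 9.1e-06), which is 1.85 times the control signal. In H1693 it measured 11.67 and 11.78 in KD arrays and 11.95 and 11.93 in controls (change -0.21, adjusted p = 0.0782), and under quantile normalisation, median centring or a variance trend this change passed. In H1993 the groups overlapped, at 11.18 and 11.09 against 11.25 and 11.13. Tested together, the 3 changes were unequal (limma F test, adjusted p = 6.16e-05).

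E2F6, the Polycomb-linked repressor, is read by 5 probe sets. With the brightest it was higher in H1650, at 10.35 and 9.96 in KD arrays against 9.07 and 9.30 in controls (change 0.97, SE 0.13, limma adjusted p = 0.000139). The sets of this gene pointed in different directions in H1650. The next 3 in brightness gave 1.02 (adjusted p = 0.000425), -0.89 (adjusted p = 1.78e-05) and 0.21 (no call), and the dimmest 0.76 (adjusted p = 0.0131), which was lost without the second KD array (0.75, adjusted p = 0.0515) or the second control array (0.68, adjusted p = 0.0708). No E2F6 set was called in H1993 or H1693. The brightest measured 9.72 and 9.51 in H1993 KD arrays against 9.39 and 9.35 in controls, without overlap but with an adjusted p of 0.207, and 9.98 and 10.01 in H1693 KD arrays against 9.93 and 9.98.

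E2F7, an atypical repressor that shuts down activator E2F genes late in S phase, was lower in H1693, higher in H1650 and not called in H1993. In H1693 the brighter set measured 7.37 and 7.55 in KD arrays against 8.12 and 8.06 in controls (change -0.63, SE 0.08, limma adjusted p = 0.000314). In H1650 it measured 11.43 and 11.41 against 10.74 and 10.83 (change 0.63, adjusted p = 0.000101), and in H1993 9.24 and 9.27 against 9.22 and 9.19 (change 0.05, adjusted p = 0.701). The H1993 change exceeded the H1693 change by 0.68 (SE 0.11, adjusted p = 0.00303), and this call held with any 1 of the 8 arrays left out (0.59 to 0.77). The second E2F7 set overlapped in every line and was called in none, with changes of 0.02, -0.18 and -0.04 in H1993, H1693 and H1650.

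E2F8, the other atypical repressor, had the largest fall of any member in H1693 and was lower with each of its 3 probe sets in both H1993 and H1693. The brightest measured 7.55 and 7.78 in H1693 KD arrays against 9.01 and 8.85 in controls (change -1.26, SE 0.15, limma adjusted p = 0.000224), or 0.417 times the control signal. The other sets changed there by -1.11 and -0.74 (adjusted p of 3.01e-05 and 0.00069). In H1993 the brightest set measured 8.74 and 8.26 in KD arrays, which differ more between themselves than the controls at 8.97 and 8.95, and changed by -0.46 (adjusted p = 0.045). The other sets gave -0.37 and -0.44 there (adjusted p of 0.014 and 0.012). Without the second H1993 KD array the 3 changes were -0.22, -0.35 and -0.34, none past the threshold. Without the first H1993 control array they were -0.45, -0.37 and -0.35, again none past it, and without the second control array those of the 2 brighter sets, -0.47 and -0.38, also missed it. With the brightest set the H1993 change exceeded the H1693 change by 0.80 (SE 0.21, adjusted p = 0.0288), a call that was lost in 6 of 8 fits with 1 array left out (0.56 to 1.04 over the 8). The set next in brightness gave a difference of 0.74 (limma adjusted p = 0.00484) and the dimmest 0.30 (adjusted p = 0.22). In H1650 the brightest set did not pass (0.30, adjusted p = 0.123), another gave -0.19 and the dimmest rose by 0.48 (adjusted p = 0.00398).

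TFDP1, the main DP partner, was lower in H1693 with 4 of its 5 probe sets. The brightest measured 10.36 and 10.53 in H1693 KD arrays and 11.15 and 11.06 in controls (change -0.66, SE 0.13, limma adjusted p = 0.00473), and the other 3 called sets changed by -0.80, -0.67 and -0.71. In H1993 no set was called, and the brightest overlapped at 11.88 and 11.56 against 11.94 and 11.79. In H1650 the brightest also overlapped, at 12.08 and 11.82 against 11.69 and 11.92 (change 0.14, adjusted p = 0.407), while the 3 sets next in brightness measured between 7.17 and 7.62 in KD arrays and between 9.39 and 10.36 in controls. Their changes were -2.73, -2.45 and -2.15 (adjusted p at most 6.1e-07). The changes of this gene lay 2.87 apart in a single comparison, the widest range of any member. The positions of these probe sets along the transcript are not given in the files.

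TFDP2, the second DP partner, had no call with its brighter set, which measured 10.43 and 10.58 in H1650 KD arrays against 10.23 and 10.21 in controls (change 0.29, adjusted p = 0.0701). Its dimmer set rose by 0.65 in H1650 (limma adjusted p = 0.000995), with 8.80 and 8.86 in KD arrays against 7.99 and 8.38. In H1993 and H1693 the dimmer set changed by 0.23 each time, without a call.

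**Figure D3:**
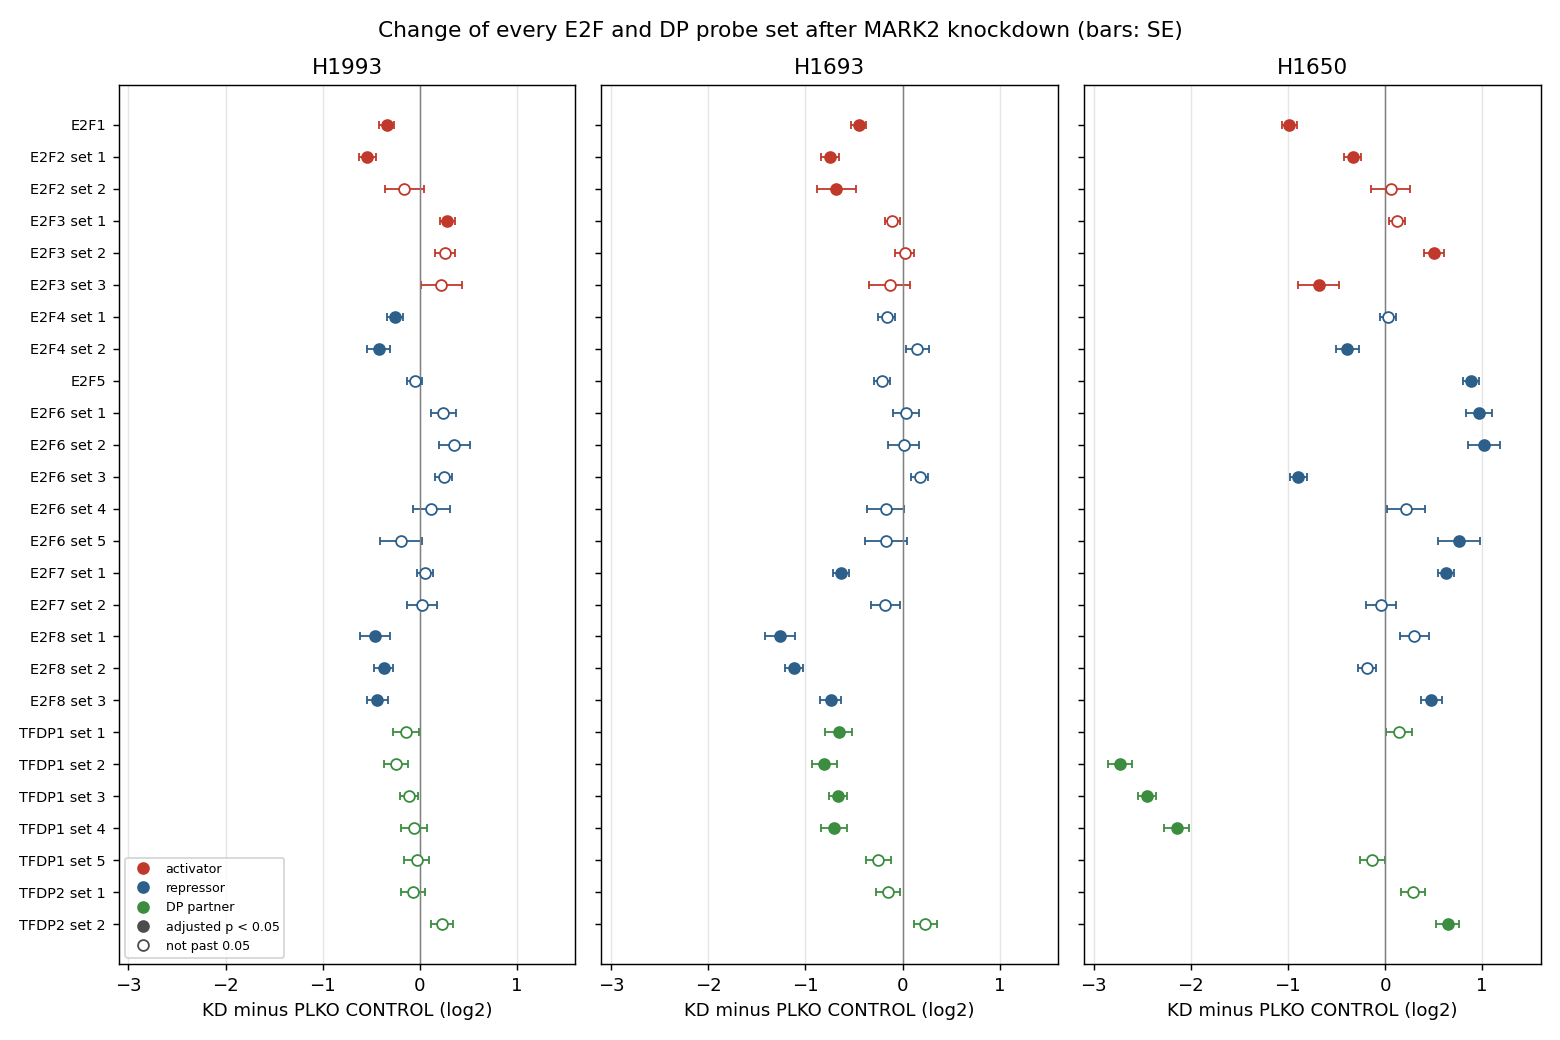
Change in log2 signal, KD minus PLKO CONTROL, of each of the 26 member probe sets in the 3 lines, with the standard error of the fit as bars. The probe sets of E2F8 lie below 0 in H1993 and H1693, and 3 of the TFDP1 sets lie below -2 in H1650.

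The spread among probe sets of a gene was compared with that of other genes. For the 8 members with more than 1 set, the range of their changes had a median of 0.19 in H1993, 0.37 in H1693 and 0.67 in H1650. Over all 10175 such genes the medians were 0.23, 0.22 and 0.60. All sets of a gene share the same arrays.

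Between lines, the F test over the 3 changes called 7 of 10 members, where 52.3% of genes were called. The direct comparison of H1993 with H1693, the lines in which MARK2 fell, called 3 members, E2F3, E2F7 and E2F8, all with a higher change in H1993, where 18.9% of genes were called, 10.9% as higher and 8.09% as lower. With 1 array of either line left out, this count was 1 or 2. Counted as probe sets, 7 of 26 were called, 6 as higher and 1 as lower, beside 17.3%, 8.6% and 8.67% of all sets tested. The 1 lower was the dimmer E2F4 set, at -0.58 (limma adjusted p = 0.0411), a call lost in each of the 8 fits with 1 array left out and under median centring. By their brightest sets, E2F1, E2F2 and TFDP1 differed between these lines by 0.11, 0.21 and 0.51 with adjusted p of 0.569, 0.316 and 0.0974. Another 2 TFDP1 sets were called, at 0.55 and 0.65 (adjusted p of 0.0168 and 0.0406). With 1 array left out the first of these lost its call in 5 of the 8 fits, and the second lost it in all 8 and with the replicate number as a block.

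Levels in the empty-vector arrays were compared between lines, without a hairpin against MARK2, and they are given by the brightest set unless another is named. In H1650 controls the 3′ set exceeded the 5′ set by 2.68 for GAPDH and by 2.90 for ACTB. The ACTB difference was 0.32 and 0.55 in H1993 and H1693 controls. The part of these transcript ends in any step against H1650 was not tested. Of the 10 genes, 8 differed between H1993 and H1693, 6 between H1993 and H1650 and 8 between H1693 and H1650, beside 62.1%, 63% and 62% of all genes tested. E2F1 was highest in H1650, then in H1993, then in H1693, and each step was called (0.79 and 0.68). E2F7 had the same order with wider steps of 1.58 and 1.12, but its second set was called for no pair. That set gave 0.27 for H1993 minus H1693, 0.25 for H1993 minus H1650 and -0.02 for H1693 minus H1650. E2F5 ran the other way, highest in H1693, 0.74 above H1993 and 3.32 above H1650, so that H1693 controls had 9.99 times the E2F5 signal of H1650 controls. E2F2 was lower in H1693 than in the other lines, by 0.54 and 0.53, and H1993 and H1650 did not differ past the threshold (0.01, adjusted p = 0.917). Its dimmer set went the other way without a call, at -0.38 for H1993 minus H1693 and 0.35 for H1693 minus H1650. TFDP1 was lowest in H1693, below H1993 by 0.76 and below H1650 by 0.70, but its next 3 sets did not separate H1693 from H1650 (-0.07, -0.03 and -0.17, none called). TFDP2 was highest in H1693, 0.98 above H1650 and 2.43 above H1993, but its dimmer set did not separate H1693 from H1650 (0.20, not called). E2F3 was called for no pair (adjusted p of 0.0793 to 0.557), although its dimmest set was higher than in H1650 by 0.97 in H1993 and by 1.44 in H1693 (adjusted p of 0.0019 and 0.00012). E2F6 was higher in H1693 than in the others, by 0.59 and 0.78, while its dimmest set was higher in H1993 than in H1693 (0.55, adjusted p = 0.0463), a call lost without either H1693 control array or the second H1993 control array (0.51, 0.58 and 0.22). E2F4 was lowest in H1993, with H1693 and H1650 not separated (0.14, adjusted p = 0.172). The dimmer E2F4 set had H1650 lowest instead, below H1993 by 3.96 and below H1693 by 3.87. E2F8 was higher in H1650 than in H1993 and H1693 by 0.45 and 0.48. For H1993 and H1693 minus H1650 its next set gave -0.11 and -0.10, neither called. The dimmest set gave -0.34 and -0.50, both called, the first lost without the second control array of H1650 or of H1993 (-0.27 and -0.25). The H1650 steps of E2F4 and E2F8 were lost when some single arrays were left out, at -0.20 for E2F4 without the second H1993 control array (adjusted p = 0.135) and at -0.34 and -0.37 for E2F8 without the second H1650 control array.

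The proteins that restrain or release E2Fs were read next, each by its brightest probe set. Among the pocket proteins, which bind E2Fs directly, RBL1 fell in all 3 lines, with changes of -0.76, -0.55 and -0.66 in H1993, H1693 and H1650 (limma adjusted p of 0.000788, 0.00537 and 0.000767). RBL1 is itself an E2F target gene, and its 3 sets disagreed in H1650, between -0.66 and 0.33. RB1 changed by -0.37 and 0.08 in H1993 and H1693 without a call and fell by 2.15 in H1650, where its sets ranged up to 0.89. RBL2 changed by -0.09 in H1993 without a call, rose by 0.33 in H1693, a call lost without the second KD array or either control array, and fell by 1.41 in H1650, where another set gave 0.72. The H1650 direction of these 3 genes thus depended on the probe set.

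The 9 cyclins, kinases and CDC25A upstream of RB1 moved differently in H1993 and H1693. In H1993 3 were higher and none lower, beside 17.6% and 13.3% of all genes. These were CCND2, a D-type cyclin, at 1.66, CDC25A, a phosphatase that activates CDKs, at 0.62 and CDK6 at 0.36, whose sets ranged from -0.37 to 0.45. In H1693 5 were lower and 2 higher, beside 14.8% and 15.9% of all genes. CCNE2, an E-type cyclin and E2F target, changed there by -1.15, CDC25A by -0.80, CCND2 by -0.74 and CCNE1 by -0.58. The CCND2 signal in H1693 lay near or below the floor, at 4.11 and 4.22 in KD arrays against 4.81 and 5 in controls. The CCND2 sets ranged from -0.74 to -0.06 in H1693 and from 0.01 to 1.66 in H1993. The difference of H1993 minus H1693 was called as higher for 5 of the 9 and lower for 1, beside 10.9% and 8.09% of all genes. In H1650 4 were lower and 4 higher, beside 16.2% and 35.5% of all genes, with CDK4 at -1.33. Some calls in each direction were lost without the first H1650 KD array.

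Among 6 measured CDK inhibitors, CDKN1C (p57) rose in every line, with changes of 1.23, 1.19 and 0.66 in H1993, H1693 and H1650. CDKN1A (p21) rose by 0.63 in H1993, with changes of -0.07 and 0.03 in H1693 and H1650, and CDKN1B (p27) rose by 0.69 in H1650, where its other set gave -0.44. By their brightest sets none was called lower in any line, beside 13.3%, 14.8% and 16.2% of all genes in H1993, H1693 and H1650. Called higher in these lines were 2, 1 and 2 of the 6, beside 17.6%, 15.9% and 35.5% of all genes.

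Of the 7 genes of the MuvB core and its partners, which activate mitotic genes or repress cell cycle genes as the DREAM complex with E2F4 or E2F5, FOXM1, MYBL2 and RBBP4 fell in each line. FOXM1 changed by -0.92, -1.37 and -1.28 in H1993, H1693 and H1650, and MYBL2, a classical E2F target, by -0.71, -0.68 and -2.45. LIN37, a core subunit, rose by 0.41 in each line, but its other set gave -0.98 in H1650, and the other RBBP4 set gave 0.17 there. In total 3 were lower and 1 higher in H1993, beside 13.3% and 17.6% of all genes. The counts were 5 and 1 in H1693, beside 14.8% and 15.9%, and 3 and 2 in H1650, beside 16.2% and 35.5%.

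Of 7 genes that act on the turnover or activity of E2F proteins, 5 fell in H1993 and 5 in H1693, with none higher. In H1650 3 fell and 1 rose. Of all genes, 13.3% fell and 17.6% rose in H1993, 14.8% and 15.9% in H1693, and 16.2% and 35.5% in H1650. CCNA2, whose kinase phosphorylates DP-bound E2F1, changed by -0.66 in H1993, by -1.19 in H1693 and by -0.27 in H1650. CDC20, an activator of the anaphase-promoting complex, changed by -0.91, -0.91 and -0.40, and SKP2, an F-box protein that recognises E2F1, by -0.30, -0.83 and -1.05, all past the threshold. In H1650 the other sets of CCNA2 and CDC20 reached 0.12 and 0.01. CCNF changed by -0.72 in H1693, and MDM2 and EAPP by -0.65 and -0.43 in H1993.

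The classical E2F target genes of the G1/S transition were the list with the most one-sided counts in H1693. Of 35 genes listed, 32 were measured. In H1693 31 of the 32 were lower and none higher, with a median change of -0.85, beside 14.8% of all genes lower. MCM4, a subunit of the replicative helicase, changed by -1.30, CCNA2, which is also in the turnover list, by -1.19, POLE2 (a DNA polymerase subunit) by -1.15 and RRM1 (a ribonucleotide reductase subunit) by -1.11. The exception was MCM5, named here for being the only one (-0.47, limma adjusted p = 0.0516). In H1993 18 were lower and none higher, beside 13.3% and 17.6% of all genes, with a median of -0.33. The largest falls were MCM5 at -0.88, CCNA2 at -0.66, GINS2 at -0.60 and CDC45 at -0.52. With 1 H1993 array left out the count was 12 to 14. The change of H1993 was higher than that of H1693 for 26 of the 32 and lower for none, beside 10.9% and 8.09% of all genes. The median difference was 0.56 against 0.05 over all genes. In H1650 11 were lower and 6 higher, beside 16.2% and 35.5% of all genes, with a median of 0.00 against 0.15 over all genes. GINS2 changed there by -1.53, MCM2 by -1.39, CDC45 by -1.19 and MCM6 by -1.12, all encoding parts of the replicative helicase, although sets of CDC45 and MCM6 reached 0.09 and 0.44. Under median centring the H1650 split was 8 lower and 11 higher, and without the first control array it was 10 and 3. In H1650, the line with the largest E2F1 change, the list was thus called in both directions. The share called either way was near the 51.7% of all genes.

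**Figure D4:**
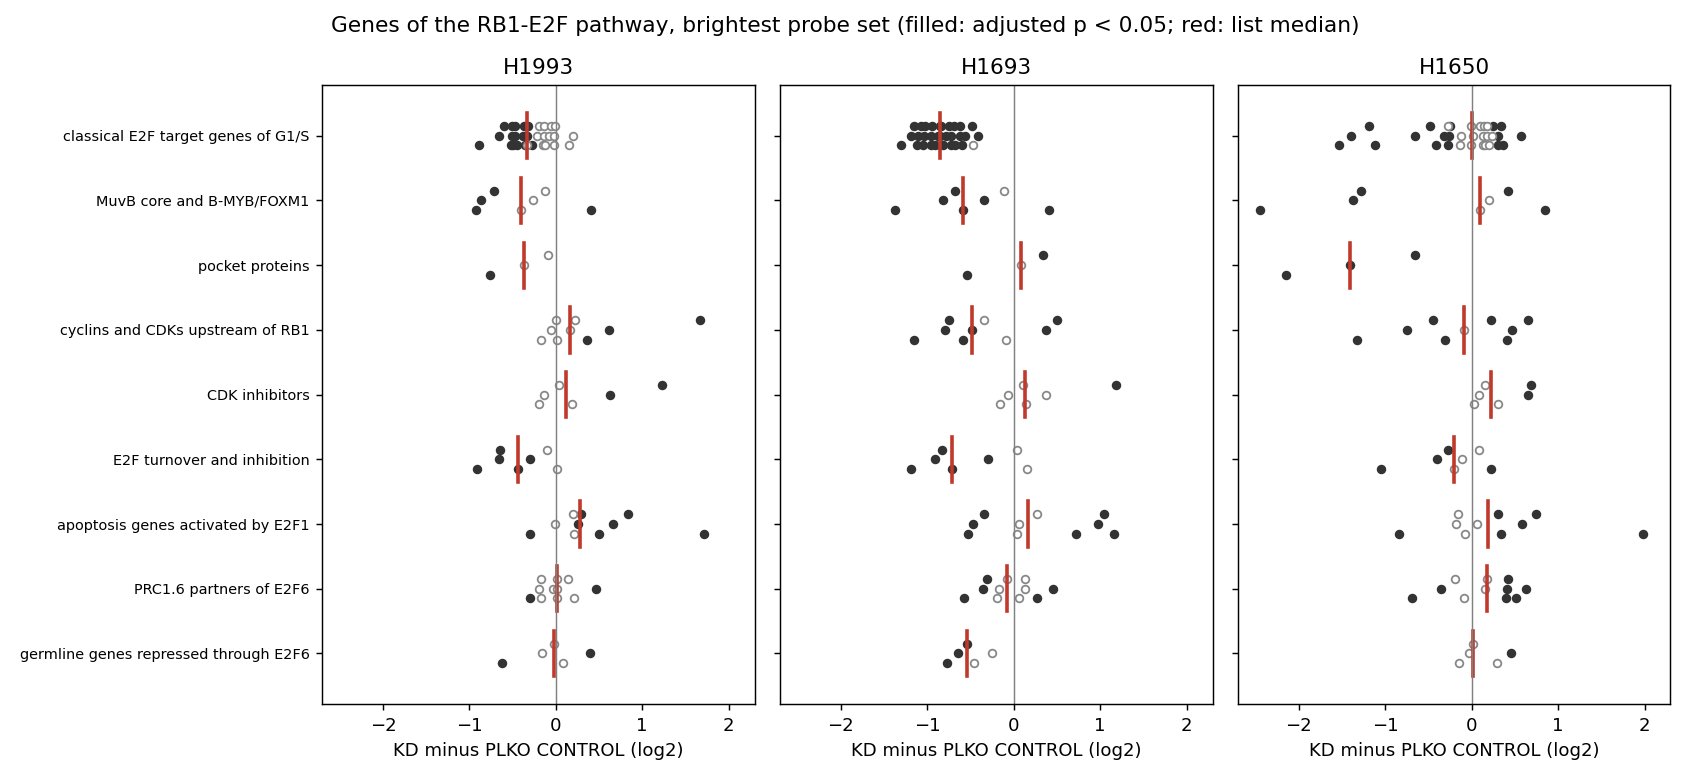
Changes in log2 signal, KD minus PLKO CONTROL, of the genes of each E2F pathway list in the 3 lines, 1 point per gene. In H1693 the classical target genes have a median of -0.85, against -0.33 in H1993 and 0.00 in H1650.

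Apoptosis genes known to be activated by E2F1 were called in both directions. Of 10 measured, the H1993 arrays had 6 higher and 1 lower, beside 17.6% and 13.3% of all genes. The H1693 arrays had 4 higher and 3 lower, beside 15.9% and 14.8%, and the H1650 arrays 5 higher and 1 lower, beside 35.5% and 16.2%. TP53INP1, also a p53 target, rose by 1.72, 1.16 and 1.98 in H1993, H1693 and H1650, and PMAIP1 (NOXA) by 0.83, 0.72 and 0.58. BBC3 (PUMA) rose by 0.66 in H1993 and 0.98 in H1693. APAF1 rose by 0.74 in H1650. The lower calls, named after their values were seen, were SIVA1 at -0.30 in H1993, SIVA1, APAF1 and TP73 at -0.47, -0.53 and -0.35 in H1693, and CASP8 at -0.84 in H1650. CASP8 was higher in H1693, by 1.05, with all of its 7 sets above 0 there, and in H1650 its sets ranged from -1.63 to 0.09. The H1993 count of 7 called was 4 without the second KD array and 4 without the second control array.

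Lists tied to E2F6 were mixed. Among 11 measured subunits of the Polycomb complex PRC1.6, H1993 had 1 call each way, H1693 had 3 falls and 2 rises, and H1650 had 2 falls and 5 rises. The background shares of falls and rises were 13.3% and 17.6% in H1993, 14.8% and 15.9% in H1693 and 16.2% and 35.5% in H1650. The H1650 counts were near them. PCGF6, the subunit that defines the complex, fell by 0.58 in H1693 and rose by 0.63 in H1650. The H1693 count of 5 was 2 without either KD array or without the first control array, and 3 without the second control array, and the H1993 count was 1 without the second KD array. Of 9 germline genes repressed through E2F6, 5 reached the floor, and the same background shares stand beside their counts. In H1693 3 were lower, with STAG3 at -0.77, SMC1B at -0.64 and TDRKH at -0.54, and in H1650 SMC1B alone was higher, by 0.45, a call lost without either control array and not shared by a set at -0.31. In H1993 TDRKH fell by 0.62 and STAG3 rose by 0.39, leaving 1 call without the second control array.

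The genes most like a member were found by Pearson correlation over the 12 arrays after subtracting the mean of each line, among all genes tested. These are descriptions over arrays that share their groups. E2F1 was most like DTYMK, a thymidylate kinase (r = 0.994), then CYB5B, NUSAP1, POLDIP3 and HSP90AA1, and DTYMK had changes of -0.57, -0.59 and -1.47 in H1993, H1693 and H1650. E2F2 was most like RPA1, a single-strand DNA binding protein (r = 0.980), then LSM14A, TMEM14A, TARDBP and ACOT7, with RPA1 at -0.68, -0.89 and -0.39. E2F7 was most like THUMPD2 (r = 0.989), then MAPK9, NANP, TRIM9 and GYG1, and THUMPD2 changed by 0.09, -0.50 and 0.49. E2F8 was most like DBF4, the activating subunit of the replication kinase CDC7 (r = 0.989), then PRPF3, DNAJC9, SHCBP1 and DLGAP5, with DBF4 at -0.37, -0.93 and 0.28.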

How the data were processed

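The authors deposited a log2 signal for each PrimeView probe set. Per the submitters' processing notes it was made by RMA with Affymetrix Expression Console, versions not stated there. RMA corrects background, puts all arrays on the same distribution and combines the probes of each set, and it compresses changes of dim sets. The number of arrays limits the precision.

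Names came from the platform annotation, in which 44994 probe sets had 1 symbol, 1832 several and 2569 none. After leaving out 102 control sets, 44988 with 1 symbol remained, of which 44961 matched a gene ID of the RefSeq table (GRCh38.p14). The 38924 that reached a log2 signal of 5 in at least 2 arrays were tested. They represent 16205 genes.

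limma 3.58.1 (R 4.3.3) fitted 6 group means to the 12 arrays at once, and eBayes moderated the variances (6 residual and 3.92 prior degrees of freedom). Contrasts were KD minus PLKO CONTROL in each line, the H1993 change minus the H1693 change, the F test of the 3 changes, and PLKO CONTROL levels between lines. Tests were two-sided, adjusted by Benjamini-Hochberg over all probe sets tested, with a threshold of 0.05. Comparisons of lines share the arrays of each line. The code was tested on simulated data. Replicate arrays were not duplicates (identical values in 0.0526% to 0.0992% of probe sets).

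Named genes were all members, MARK2, all pocket proteins, up to 4 called genes with the largest change per list and line, and the 5 genes most like E2F1, E2F2, E2F7 and E2F8. The members and lists were chosen with earlier results of these data known. Lists are described by counts and medians, with no set test. Alternatives were other floors, quantile normalisation, median centring, 1 probe set per gene, a variance trend, the replicate number as a block, single lines, and leaving out each array. A fit without the 4 H1650 arrays was chosen after seeing the data. Promoter windows and letter matches come from RefSeq's table.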

Additional observations from a re-analysis of the deposited data

Results flagged for a closer look

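The change of 7 members differed between lines by a test of the difference itself. For E2F1 the F test over the 3 lines gave an adjusted p of 0.00138, with changes of -0.34, -0.45 and -0.99 in H1993, H1693 and H1650. E2F5 gave 6.16e-05, with -0.06, -0.21 and 0.89, and E2F6 gave 0.00413, with 0.24, 0.04 and 0.97. Another E2F6 set changed by -0.89 in H1650. For E2F1, E2F5 and E2F6 the largest change was that of H1650, the line with the shifted transcript ends and no MARK2 call. The part of those ends in these F tests was not tested. TFDP1 gave 0.0146, with -0.14, -0.66 and 0.14 for its brightest probe set, and the F test missed the threshold without the first H1693 KD array (0.0602) or the first H1693 control array (0.0552). The H1993 change minus the H1693 change was 0.39 for E2F3 (limma adjusted p = 0.0401), 0.68 for E2F7 (adjusted p = 0.00303) and 0.80 for E2F8 (adjusted p = 0.0288). The E2F3 difference was lost in all 8 fits with 1 array left out (0.33 to 0.44), and that of E2F8 in 6 of the 8 (0.56 to 1.04). Over all genes, 52.3% were called by the F test and 18.9% by the H1993 minus H1693 difference.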

How the results depend on the processing

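The counts of called members in H1693 and H1650, by the F test and between control levels stayed within 1.5 times their values under the alternatives run. With the replicate number as a block, the H1993 count of 5 became 3 and the H1993 minus H1693 count of 3 became 1. E2F4 and E2F8 lost their H1993 calls under the block (adjusted p of 0.0703 and 0.0678), and E2F3 and E2F8 their difference between the lines (0.0686 and 0.0532). The labels do not say that a replicate number marks a shared batch. Deviations of same-numbered arrays correlated at 0.30 in H1993, and at -0.17 and -0.12 in H1693 and H1650. Whether the H1993 arrays are paired by number was not tested. Fitted to its own 4 arrays, H1993 had 2 called. With 1 array left out, the H1993 count was 2 to 3, the H1693 count 5 each time, the H1650 count 4 to 5, the H1993 minus H1693 count 1 to 2 and the F test count 5 to 7. E2F2 in H1993, E2F1, E2F2, E2F7, E2F8 and TFDP1 in H1693 and E2F1, E2F5, E2F6 and E2F7 in H1650 kept their calls under all alternatives run, by their brightest probe set. No called value of a member changed sign. Of the 2654 member results recomputed, 2473 kept their side of the threshold, 141 lost a call and 40 gained one. A lone array left in a group was assumed to vary like the other groups. Dim sets, such as the second E2F4 set in H1650, are limited by signal near the floor.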
